A study of Trachinotus ovatus with 6 samples.

Results

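Among the genes of golden pompano gonads, 68 of 22062 were abundant in every testis, far lower in ovary, and still detectable there. They were chosen from the deposited expression values by a fixed rule. Each of the 3 testes had to reach 100 FPKM (sequenced fragments scaled by the length of the gene and by every 1000000 fragments of the library), the mean of the testes had to be at least 10 times that of the ovaries, and at least 1 ovary had to reach 0.1 FPKM. The levels and ratios between the tissues therefore chose these genes. They are given below as a description, without a test.

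Golden pompano (Trachinotus ovatus) is a marine teleost fish, and the series compares the gonads of the 2 sexes, with the Sox transcription factor family as the subject named in its title. Gonads were sampled from 3 males (testes) and 3 females (ovaries), each fish giving 1 RNA library, and no treatment is given beyond removal of the organ. The labels' genotype field repeats the name of each sample group, and the sources used here give neither strain nor age. The table identifies each gene by a code and a position, without a gene name, so markers of germ cells or somatic cells could not be used to check the tissue labels, and no function is given to any gene below.

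A testis is largely made of germ cells at successive stages of spermatogenesis, from spermatogonia through meiotic spermatocytes to spermatids that build a flagellum and compact their chromatin. These cells are known in vertebrates for transcribing many genes that other tissues use little, and a small number of transcripts can become very abundant. An ovary holds oocytes, which store RNA for the embryo, surrounded by follicle cells. In whole organs, fewer cells of a type and less RNA per cell cannot be told apart.

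The summed FPKM was 485022 to 490967 in the testes and 658899 to 796856 in the ovaries. The median gene stood at 5.1 to 6 FPKM in testes and 0.463 to 0.947 FPKM in ovaries. The table gives no read counts, so read depth is unknown and counting error cannot be attached to low ovary values. Over the 17206 genes tested across tissues, 81.6% passed an adjusted p of 0.05 in limma's moderated test on log2(FPKM + 1), with 11729 genes (68.2%) higher in testis and 2306 lower. After quantile normalization the split was 6875 higher and 5919 lower. The median log2 fold change of all tested genes (testis over ovary) was 1.43 with FPKM as deposited, 2.09 after rescaling to TPM (equal sums in all libraries), 1.16 with median ratio scaling and 0.14 after quantile normalization. All 68 members passed in the testis direction, and in all 68 each testis lay above each ovary, as it did in 69.8% of tested genes. The rule used this contrast, so nothing is read from these counts.

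The 68 genes held 19.9% of the testis signal, and a single locus held most of that. Together they took 20.9%, 18% and 20.7% of the summed FPKM of testes 1, 2 and 3, and 0.651%, 0.478% and 0.514% in ovaries 1, 2 and 3. The mean share was 19.9% ± 1.59 for testes, against 0.548% ± 0.0913 for ovaries (SD, n = 3 each). The highest member alone accounted for 14.3% ± 1.3 in testes and 0.446% ± 0.114 in ovaries (SD, n = 3). Without it and the second member, which has nearly the same span, the other 66 genes held 4.5% ± 0.344 of the testis sum and 0.0767% ± 0.0292 of the ovary sum (SD, n = 3 each). Testis 2 had the lowest share among testes, both with and without these loci. Among ovaries the order changed: ovary 1 had the highest share with the highest member included, and the lowest share over the other 66 genes, at 0.0463% against 0.105% in ovary 2 and 0.0792% in ovary 3.

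**Figure D1:**
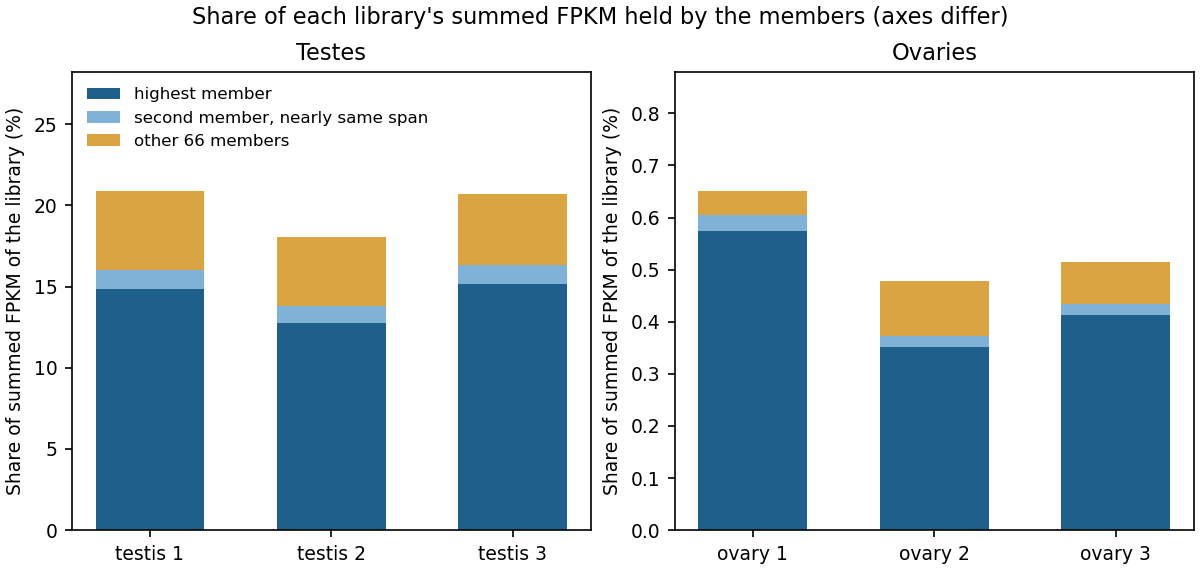
Stacked bars give the share of each library's summed FPKM (%) held by the highest member, the second member and the other 66, for 3 testes (left axes) and 3 ovaries (right axes, on a different scale). Most of each bar is the highest member, which held 14.3% of the testis sum on average and 0.446% of the ovary sum.

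The highest member, SCSFRI_TO_T_00012023, lies on linkage group 6 (8497848 to 8675729). It had 72998, 62064 and 73390 FPKM in testes 1, 2 and 3, and 4570.1, 2321 and 3024 FPKM in ovaries 1, 2 and 3. It ranked first of all genes by testis mean and 31st by ovary mean, so it was the one member also among the 100 highest genes of the ovary. Testes varied little at this locus, with a coefficient of variation (CV, SD over mean) of 9.25%, while ovary 1 had 1.97 times the level of ovary 2. The second member, SCSFRI_TO_T_00011970 (linkage group 6, 8497676 to 8675719), had 5494, 4969 and 5641 FPKM in testes 1, 2 and 3, and 249, 141 and 163 FPKM in the ovaries. The groups did not overlap in either gene, as in all 68 members and 69.8% of tested genes, and the rule largely set this. In both genes ovary 1 was the highest ovary. As deposited, ovary 1 was the highest in 4 of the 68 genes (5.88%), the pair included. The share was 11.2% over tested genes. It was 43.4% over the 249 genes also at 100 FPKM in each testis but with a ratio under 10. After median ratio scaling, ovary 1 was the highest in 28 of the 68.

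The 2 models put the libraries in the same order within each tissue, but their proportion was not the same in testis and ovary. The second stood at 0.0753, 0.0801 and 0.0769 of the first in testes 1, 2 and 3, and at 0.0545, 0.0609 and 0.0539 of it in the ovaries. Every testis value of this ratio lay above every ovary value. Another 10 gene models lie within the same stretch, with testis means of 0.0646 to 49.6 FPKM. The highest of these averaged 49.6 ± 18.8 FPKM in testes, against 4.26 ± 3.08 FPKM in ovaries (SD, n = 3 each), while another, from 8610490 to 8619866, averaged 47.9 FPKM in testis and 106 FPKM in ovary. All 10 are thus far below the 2 members. The sources used here do not say how reads were divided among overlapping models.

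**Figure D2:**
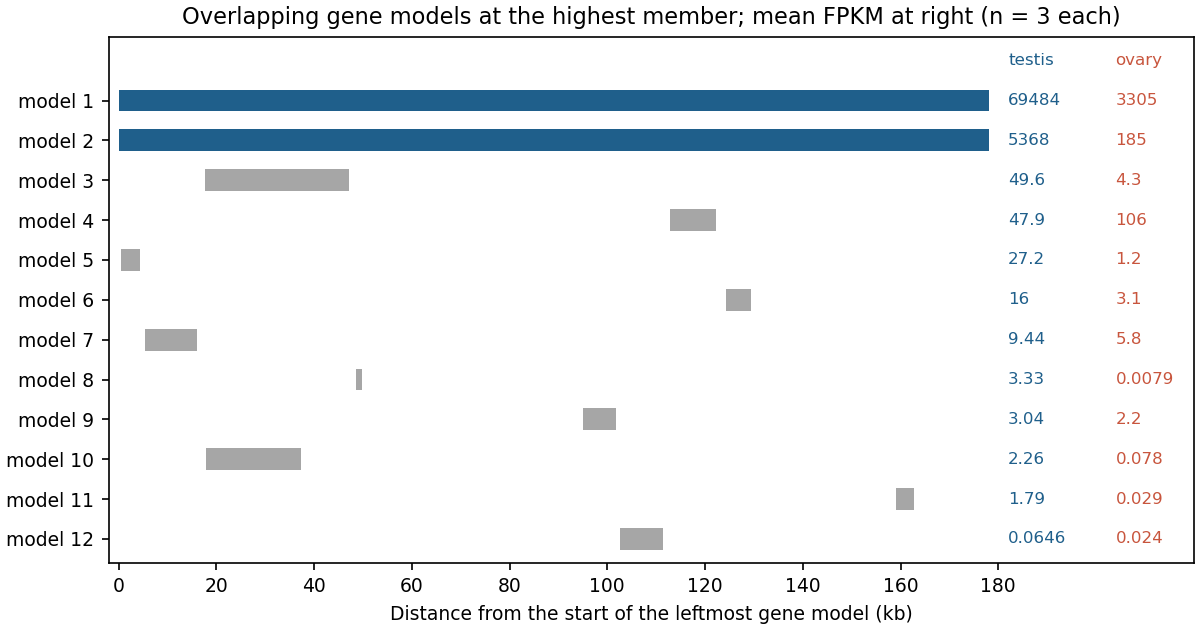
Bars show the spans of the 12 overlapping gene models at the linkage group 6 locus, against distance from the leftmost start (kb), with mean FPKM in testes and in ovaries (n = 3 each) printed at the right. The 2 members (blue) cover nearly the same stretch and stand at 69484 and 5368 FPKM in testis, while the other 10 (grey) stand at 49.6 FPKM or less.

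Testis levels of the other genes fell away quickly below these loci. The testis mean was 1000 FPKM or more in 6 members, 500 to 1000 FPKM in 6, 200 to 500 FPKM in 25 and under 200 FPKM in 31. By testis mean, 3 members were among the 10 highest genes of the testis and 11 among the 100 highest.

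The third member, on linkage group 14 (18051040 to 18055164), was measured at 3108, 1759 and 2589 FPKM in testes 1, 2 and 3, and 9.06, 22.7 and 15.7 FPKM in ovaries 1, 2 and 3. Its highest ovary was the one with the lowest level of the linkage group 6 pair. On linkage group 2 (37182960 to 37188320), levels were 1858, 927 and 1337 FPKM in the testes and 32.7, 43.7 and 46.3 FPKM in the ovaries. On linkage group 1 (25961374 to 25964351), they were 1391, 837 and 1002 FPKM in the testes and 70.4, 104 and 87.6 FPKM in the ovaries. In all 3 of these loci testis 1 was the highest testis and testis 2 the lowest, and ovary 1 was the lowest ovary. The linkage group 1 locus was the third highest member in ovary and one of the nearest to the ratio limit, at 12.3 times. With the linkage group 6 pair, the linkage group 2 locus and the linkage group 19 locus below, it made up the 5 highest members in ovary.

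A second locus on linkage group 2 (25458250 to 25460077) went the other way among testes. It had 668, 1603 and 953 FPKM in testes 1, 2 and 3, and 0.762, 0.709 and 0.784 FPKM in the ovaries. Testis 2 was 2.4 times testis 1 there, and the 3 ovaries lay within 1.11 times of each other, the narrowest spread of any member in ovary. Its mean in testis was 1430 times that in ovary.

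The rest of the 10 highest lay between 569 and 939 FPKM in testis. The linkage group 19 locus (15143805 to 15146930) reached 1141, 710.4 and 965 FPKM in the testes and 21.2, 42.6 and 35 FPKM in the ovaries. On linkage group 9 (6368269 to 6371000), values were 980.5, 489 and 616 FPKM in the testes and 17.4, 23.9 and 19.7 FPKM in the ovaries. On linkage group 5 (5558106 to 5559657), values were 772, 398 and 538 FPKM in the testes and 2.43, 8.81 and 3.43 FPKM in the ovaries. Each of these had testis 1 highest and testis 2 lowest.

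A locus on linkage group 18 (7313902 to 7315175), also among the 10 highest, stood out by its evenness in testis and its low ovary level. It had 706, 682 and 687 FPKM in the testes, a CV of 1.81%, and 0.098, 0.332 and 0.179 FPKM in ovaries 1, 2 and 3. Its ratio of means, 3410.4, was the highest of the 68 genes. Since ovary values of this size have no known counting error, the ratio is a description of the listed values.

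**Figure D3:**
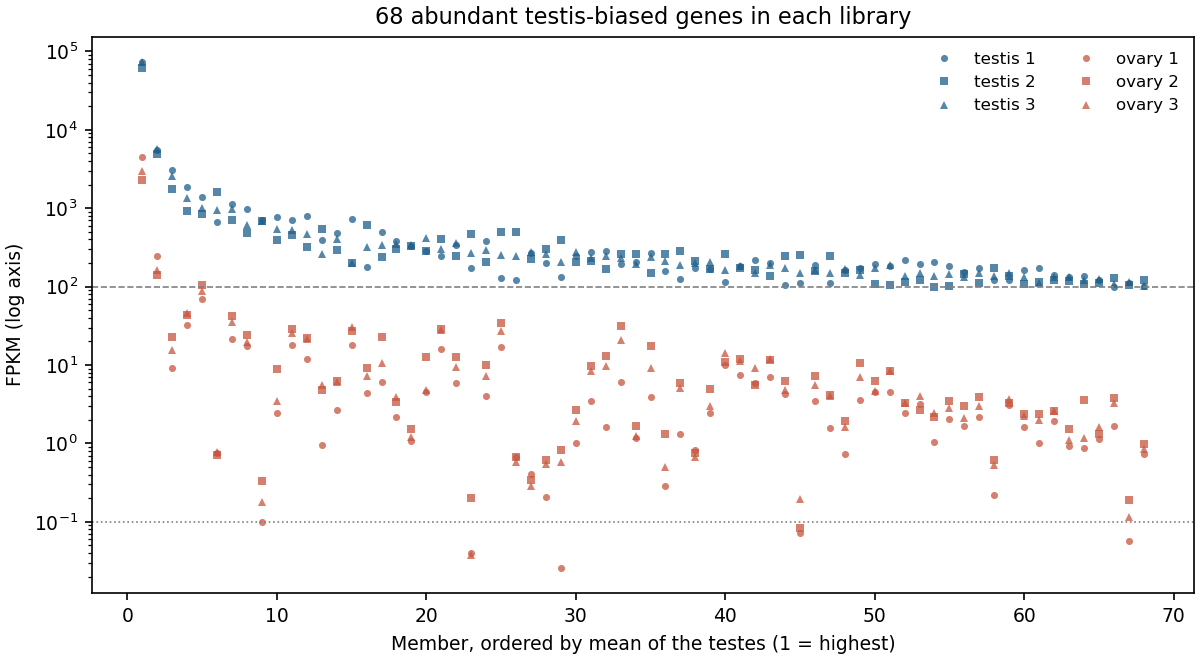
FPKM (log axis) of each of the 68 members in 3 testes (blue) and 3 ovaries (red), ordered by mean of the testes. Dashed and dotted lines mark 100 and 0.1 FPKM; testis values fall from 69484 FPKM on average to near the limit of 100, while ovary means run from 0.0923 to 3305 FPKM.

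In ovary, most of these genes lay above the median over all genes of the table. The ovary mean was 10 FPKM or more in 18 members, 1 to 10 FPKM in 37 and under 1 FPKM in 13. The median over members was 3.61 FPKM, beside 2.01 FPKM over all tested genes and 0.746 FPKM over all genes of the table. Of the 68, 58 lay above 0.746 FPKM, the median that includes all genes of the table. In each of the 3 ovaries 51 reached 1 FPKM, beside 9044 to 10914 of all 22062 genes in a single ovary. None was listed at 0 in any ovary, as was true of 16386 of the 17206 tested genes. The rule set a lower limit in 1 ovary and an upper limit through the ratio, so part of this range was fixed by the choice.

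The ratio of means ran from 11.3 to 3410.4, with a median of 51.8. It was under 20 in 8 members, 20 to 100 in 38, 100 to 1000 in 18 and 1000 or more in 4. Members with higher testis means also tended to have higher ovary means, with Spearman's rho of 0.48 across the 68 genes and 0.43 without the highest 2. These points share the same 6 libraries and were selected by the ratio, so rho is a description only. In 61 of 68 the lowest testis was at least 10 times the highest ovary, and the smallest such ratio was 3.74. The rule's limits on testis level and ratio largely set this separation, so the count is a description only.

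The ratios depend on how the libraries are put on one scale. The median ratio of the 68 genes was 75.7 after rescaling to TPM and 38.6 with median ratio scaling. With median ratio scaling, 4 of the 68 had a ratio under 10 and 17 had a testis under 100 FPKM. For the rule, equal sums were set to the mean sum of the libraries and not to 1000000, so its limits were not in TPM units. Applied anew to rescaled values, the rule chose 104 genes with these equal sums and 47 with median ratios, where all 47 were among the 68. Median ratio scaling lowered every testis value against the fixed limit of 100 FPKM, so few other genes could enter. The 104 would change with the sum chosen.

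**Figure D4:**
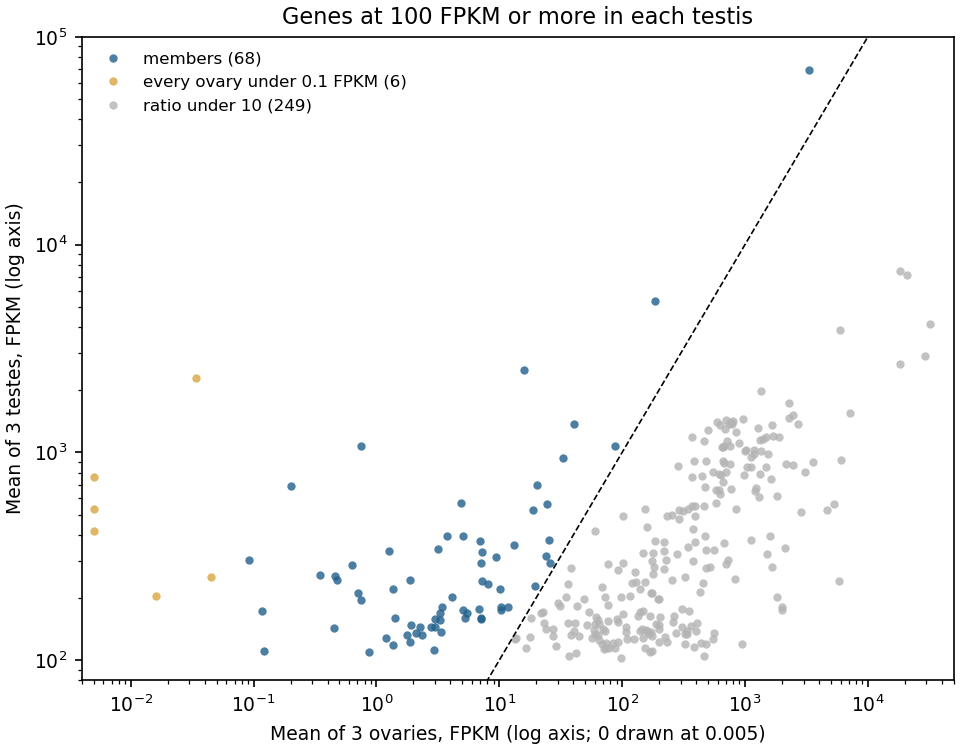
Mean of 3 testes (vertical, FPKM, log axis) against mean of 3 ovaries (horizontal, FPKM, log axis, 0 drawn at 0.005) for the 323 genes whose testes all reached 100 FPKM. The 68 members (blue) lie left of the dashed line at a ratio of 10, the 6 genes under 0.1 FPKM in every ovary (yellow) at the far left, and the 249 genes with a ratio under 10 (grey) to the right.

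The lowest ovary means belonged to loci on linkage groups 3, 10, 21, 18 and 14. The first (35176229 to 35178533) had 171, 474 and 270.3 FPKM in testes 1, 2 and 3, and 0.0398, 0.199 and 0.0381 FPKM in the ovaries. The second (9622264 to 9625453) had 112, 255 and 151 FPKM in the testes and 0.0713, 0.0837 and 0.195 FPKM in the ovaries. Both met the ovary limit through 1 library, ovary 2 in one case and ovary 3 in the other. On linkage group 21 (12490510 to 12497001), levels were 109.9, 106 and 115 FPKM in the testes and 0.0569, 0.191 and 0.115 FPKM in the ovaries. On linkage group 14 (18078441 to 18095041), they were 272, 227 and 274 FPKM in the testes and 0.408, 0.341 and 0.286 FPKM in the ovaries. Both were even in testis, with CVs of 3.99% and 10.3%. In all, 5 members had at least 1 ovary under 0.1 FPKM.

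The testis and ratio limits had other genes close by on both sides, while the ovary limit fell in a gap. The lowest testis of the members nearest to 100 FPKM was 100.1, 100.3 and 103 FPKM, and that of the genes just below was 99.7, 99.3 and 99.1 FPKM. Another 135 genes met the other limits with a lowest testis of 50 to 100 FPKM. The ratios nearest to 10 were 11.3, 11.6 and 12.3 inside and 9.32, 9.31 and 8.81 outside, and 16 genes had a ratio of 5 to 10. The highest ovary of the members nearest to 0.1 FPKM was 0.191, 0.195 and 0.199 FPKM, and that of the genes just below was 0.0679, 0.0478 and 0.0382 FPKM.

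Between fish, these genes had a higher median spread among testes than the other sets compared. The median CV among testes was 23.8% over the 68 members, 12.7% over the 249 genes that also reached 100 FPKM in each testis but had a ratio under 10, and 15% over all tested genes. Over the 6 genes as abundant in testis but under 0.1 FPKM in every ovary it was 18.5%. A CV over 50% was found in 6 members (8.82%), 2 of those 6 genes, 0.803% of the 249 and 3.74% of tested genes. Testes 1 and 2 lay at the ends: without testis 1 the median CV of the members was 15.9%, without testis 2 it was 13.5%, and without testis 3 it was 30.2%. Medians with 1 testis left out were not computed for the other sets, so whether the members' higher spread holds there is not known. The highest testis was over 2 times the lowest in 18 members. CVs under 10% were found in 14 members (20.6%), beside 30.6% of tested genes.

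The genes that varied did so in opposite directions. In 24 members (35.3%) testis 1 was more than 1.5 times testis 2, in 14 (20.6%) testis 2 was more than 1.5 times testis 1, and 30 lay within that range. The same counts over all tested genes were 18.4% and 10.6%, and over the 249 abundant genes with a ratio under 10 they were 8.84% and 11.6%. Median ratio scaling lowers testis 1 relative to testis 2. With it, the counts were 18 and 14 of the 68 members, beside 13.6% and 13.1% of tested genes. At a limit of 2 times, as deposited, testis 1 was the higher in 6 members (8.82%) and testis 2 in 11 (16.2%). Tested genes gave 5.24% and 4.92% at that limit, and the 249 genes gave 0% and 6.83%. With median ratio scaling, 2 and 11 members passed it. Testis 3 lay between the other two in 47 members (69.1%), beside 79.5% of the 249 genes and 61.5% of tested genes. What differed between the fish is not given, and these are 3 single libraries, so no test was made.

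The 13 members with an ovary mean under 1 FPKM were divided between those high in testis 2 and those with similar testes. Of the 14 high in testis 2, 7 had an ovary mean under 1 FPKM and the median ovary mean was 2.01 FPKM. Of the 24 high in testis 1, none had an ovary mean under 1 FPKM, with a lowest value of 1.79 FPKM and a median of 7.62 FPKM. Of the 30 in between, 6 lay under 1 FPKM, among them 3 of the 5 lowest, and their median was 2.65 FPKM. Testis means were similar, with medians of 249.6 FPKM in the first set and 263 FPKM in the second. The median ratio of testis to ovary was 176 in the 14 members and 33.9 in the 24. These sets were defined from the values as deposited after they were seen, and the rule itself used the ovary means. Other genes were not divided in this way, so whether the pattern is particular to members is not known.

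**Figure D5:**
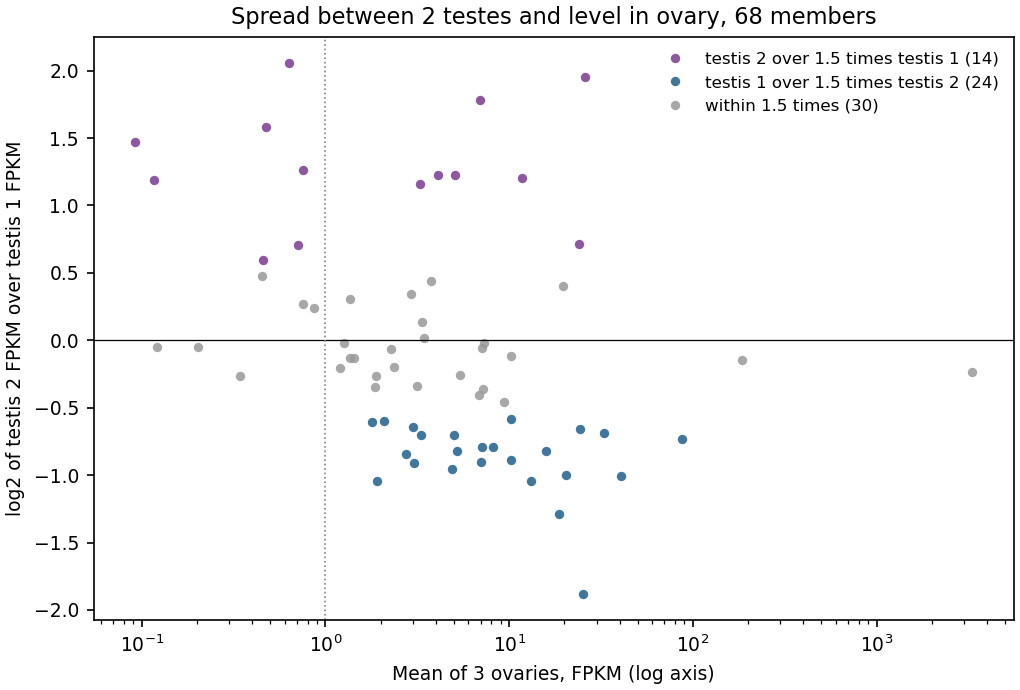
Each point is 1 of the 68 members: log2 of testis 2 FPKM over testis 1 FPKM (vertical) against the mean of 3 ovaries (horizontal, FPKM, log axis). The 14 members high in testis 2 (purple) spread over low and middle ovary levels with 7 under 1 FPKM, and the 24 high in testis 1 (blue) all lie at 1.79 FPKM or more.

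The largest spread among testes was at a locus on linkage group 24 (13344959 to 13345945), with a CV of 81.7%. It had 737, 200.1 and 200.4 FPKM in testes 1, 2 and 3, and 17.8, 27.2 and 30.6 FPKM in the ovaries. Here testis 1 stood alone, and the other two testes were nearly equal. This is also the shortest span of the 68, at 987 bp. The next largest were 2 loci on linkage group 22 and 1 on linkage group 11, all of them highest in testis 2. The locus from 5043966 to 5269236 had 121, 501 and 243 FPKM in the testes and 0.663, 0.668 and 0.58 FPKM in the ovaries. The locus from 8230512 to 8264305 had 128, 495 and 254 FPKM in the testes and 16.8, 34.2 and 26.8 FPKM in the ovaries. The linkage group 11 locus (4462604 to 4468118) reached 179, 615 and 325 FPKM in the testes and 4.4, 9.18 and 7.34 FPKM in the ovaries. All 3 had testis 3 in the middle.

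At the other end, a locus on linkage group 11 (22337975 to 22351098) was the most even, with 335, 330.1 and 340.2 FPKM in testes 1, 2 and 3 (CV 1.51%) and 1.06, 1.51 and 1.19 FPKM in the ovaries. The linkage group 19 locus from 6157262 to 6161608 had 185, 171 and 185 FPKM in the testes (CV 4.56%) and 7.56, 12 and 11.2 FPKM in the ovaries. With the loci on linkage groups 18 and 21 above, these were the 4 most even members, and their ovary means spread from 0.121 to 10.2 FPKM.

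Among ovaries, the spread was mainly that of ovary 1. It was the lowest ovary in 59 of 68 members (86.8%), beside 75.5% of tested genes, and ovary 2 was the highest in 51 (75%), beside 69.8%. The median CV among ovaries was 33.3% over the members and 37.9% over tested genes. Without ovary 1 the members' median fell to 13.9%, while it was 31.9% without ovary 2 and 44.3% without ovary 3. Ovary 1 stood low for the median gene, though it had the highest summed FPKM, with a median ratio to the 6-library mean of -0.77 on the log2 scale, against 0.16 and -0.1 in ovaries 2 and 3. After median ratio scaling, ovary 1 was the lowest in 27 members and the highest in 28, and the median CV was 20.5%. The 249 abundant genes with a ratio under 10 did not share the low position of ovary 1: as deposited it was the lowest in 45.4% and the highest in 43.4% of them, and after median ratio scaling it was the highest in 83.9%.

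Some members departed further than the shift of ovary 1, though wide spread was not particular to members. A CV among ovaries over 50% was found in 16 members (23.5%), beside 30.6% of tested genes. The highest ovary was over 4 times the lowest in 9 members. The widest, on linkage group 5 (15284213 to 15293968), had levels of 132, 396 and 205 FPKM in testes 1, 2 and 3, and 0.0261, 0.82 and 0.584 FPKM in the ovaries, a range of 31.4 times. On linkage group 2 (26196280 to 26199144), levels were 286, 166 and 247 FPKM in the testes and 1.64, 13.1 and 9.74 FPKM in the ovaries. On linkage group 16 (23348460 to 23371672), they were 395, 536 and 262 FPKM in the testes and 0.954, 4.83 and 5.52 FPKM in the ovaries. In each of these ovary 1 was low and the other ovaries lay near each other. The fourth, the linkage group 3 locus above, differed in that ovary 2 was high. Spread in testis and spread in ovary were nearly unrelated across the 68 genes, with Spearman's rho of 0.1, as a description.

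By position, members were scattered over the genome. They lay on 21 of 24 linkage groups, with 7 each on linkage groups 1, 2 and 11, 6 on linkage group 5, and none on linkage groups 7, 12 and 20. As a share of the genes listed, this ranged from 0 to 0.646%, on linkage group 19 with 4 of 619 genes. Linkage group 6, with 3 members, held 15.4% of the testis sum, and all other linkage groups held under 1% each through members.

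Short spans were more frequent than among tested genes. A span here is the whole locus, introns included. The median was 5045 bp over members, 4075 bp over the 249 abundant genes with a ratio under 10, and 10959 bp over tested genes. Spans of up to 5000 bp were found in 33 members (48.5%), beside 61% of the 249 and 20% of tested genes. At the long end, 5 members (7.35%) spanned 100000 bp or more, beside 1.2% of the 249 and 3.71% of tested genes. These include both models of the linkage group 6 pair, which cover nearly the same stretch. Without that pair, 3 of the other 66 members (4.55%) spanned that much, close to the 3.71% of tested genes. The longest was a locus on linkage group 17 (12664983 to 13787070), which had 167, 169 and 208 FPKM in the testes and 2.42, 4.89 and 3.03 FPKM in the ovaries.

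Gene models overlapped 22 members (32.4%), beside 39% of tested genes and 32.5% of the 249 abundant genes with a ratio under 10. Of the 22, 13 were overlapped by 1 model and 9 by 2 or more. The span lay inside another in 9 members (13.2%), beside 17.1% of tested genes and 20.9% of the 249. It contained another in 9 (13.2%), beside 8.21% of tested genes and 5.62% of the 249. Without the linkage group 6 pair, it contained another in 7 of the other 66 members (10.6%). The table gives no strand. Because the linkage group 6 pair is among them, overlapped members carried 82.7% of the members' summed FPKM in testis, and without that pair 23.6% of the rest. The 79 models that overlap a member and are not members themselves had a median testis mean of 8.09 FPKM. Of these, 35 overlap the long linkage group 17 locus alone, so the median leans on that locus. In 15 of the 22 the member's testis mean was at least 10 times that of its most abundant partner outside the members.

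The partner came close in few cases. The linkage group 22 locus from 8230512 to 8264305 shares 3843 bp with a model (8260463 to 8549312) that had 64.7, 380.1 and 283 FPKM in testes 1, 2 and 3, and 0.27, 0.519 and 0.435 FPKM in the ovaries. The member's testis mean was 1.21 times that of this partner, and both were highest in testis 2 and lowest in testis 1. The long linkage group 17 locus contains a model (13522249 to 13527808) with 113, 114 and 116 FPKM in the testes and 68.4, 77.6 and 77.1 FPKM in the ovaries. That partner had nearly even testes and an ovary level far above the member's.

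Members were next to another member in 4 places, and 8 of the 68 (11.8%) had a member as the gene before or after, beside 0.668% of tested genes. The first place is the overlapping pair on linkage group 6. On linkage group 2, the locus from 37182960 to 37188320 is followed 35478 bp later by the locus from 37223799 to 37231686, which had 717, 455 and 531 FPKM in the testes and 17.9, 29 and 26 FPKM in the ovaries. The first stood at 2.59, 2.04 and 2.52 times the second in testes 1, 2 and 3, and at 1.83, 1.5 and 1.78 times in the ovaries. Both were highest in testis 1 and lowest in testis 2.

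On linkage group 11, the most even locus is followed 2262 bp later by the locus from 22353361 to 22372056, with 134, 117 and 131 FPKM in the testes and 0.933, 1.54 and 1.11 FPKM in the ovaries. The first was 2.49 to 2.83 times the second in testes and 0.983 to 1.14 times in ovaries. Their ovary levels were thus nearly equal, while their testis levels were not. On linkage group 19, 105 bp separate the locus from 6154517 to 6157156 from the one that starts at 6157262. The first had 203, 135 and 189 FPKM in the testes and 6.98, 11.7 and 12.1 FPKM in the ovaries, and stood at 0.791 to 1.1 times the second in testes and 0.923 to 1.08 times in ovaries. This was the one pair with similar levels in both tissues. Whether neighbours share sequence was not analysed here.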

How the data were processed

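RNA from 3 testes and 3 ovaries was extracted with Trizol and sequenced as Illumina libraries, per the labels' protocols. The authors deposited FPKM values per gene and library. The tools were HISAT2 2.0.4 and StringTie 1.3.3b, per the submitters' processing notes, which state no order or settings here; the genome build, annotation and handling of strand were not given in the sources used here. FPKM is relative: abundant transcripts lower all other values of a library.

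The rule was applied to FPKM as deposited. The contrast over all genes used limma 3.58.1 in R 4.3.3 on log2(FPKM + 1), which understates changes of low genes. It covered genes that reached 1 FPKM in at least 3 libraries, two-sided, with Benjamini-Hochberg adjustment. The fit was also run on simulated data with few changed genes, balanced in direction, unlike these data. That run cannot show how the contrast behaves here. Median ratios were taken over genes at 1 FPKM or more in all 6 libraries, against their geometric mean. Spans overlap when they share 1 bp. Summaries used Python 3.11.15 and pandas 2.3.3.

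Members and tests were chosen with earlier results of these data known. Loci named are the members with the 10 highest testis means, the 5 highest and 5 lowest ovary means, the 4 largest and 4 smallest CVs among testes, the 4 largest ranges among ovaries, overlapping and adjacent members, and the 3 values on each side of each limit. The rule allowed 3 adjacent runs. The fourth, on linkage group 19, and the partners, neighbours and longest span were named after their values were seen. Each library came from a different fish, per the series' design text. Nothing says whether libraries were prepared together, and spread is that between fish.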

Additional observations from a re-analysis of the deposited data

How the results depend on the processing

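Of 72 alternative values of 9 results, 63 stayed near the value given, that is, within 1 SD for shares and within 1.5 times for counts and CVs. Many of these could move little. Scaling changes a share of a library's sum only through which genes are chosen, and 1 locus holds most of both shares. Leaving out a testis can only loosen the limit on each testis. The tally is thus a description only. The count of genes past the threshold was 14035, 11729 of them higher in testis. With a mean of at least 5 FPKM it was 7562 and 5509, from the 10058 genes then tested, and quantile normalization gave 6875 higher in testis, and the cause was not tested. The rule chose 68 genes, 104 with all libraries set to the mean library sum, and 25 with 200 FPKM in each testis. The 25, a stricter choice, held 18.3% of the testis sum. A ratio of at least 20 left 60 genes, and 1 FPKM in each ovary left 51. With 1 library left out it chose 66 to 94 genes, which held 19.6% to 21.2% of the testis sum and 0.488% to 0.588% of the ovary sum. The median CV of members was 13.5% to 30.2% among testes and 13.9% to 44.3% among ovaries with 1 library left out, and 20.5% among ovaries with median ratio scaling. Overlapped members numbered 18 with at least 50% of the shorter span shared, and adjacent members 6 without overlapping spans. The replicate block gave 13800 genes past the threshold. Same-numbered testes and ovaries deviated from their group means with r of 0.00866, -0.00125 and -0.0586 across genes. The libraries were treated as unpaired because they came from different fish. These r values cannot show whether any libraries were prepared together. Unknown depth leaves counting error unmeasured for members under 1 FPKM in ovary.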

Other observations

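Several models beside or within members had levels that differed sharply between testes. Within the span of the linkage group 16 member (23348460 to 23371672), a model from 23361287 to 23363398 had 0.167 and 164 FPKM in testes 2 and 3 and was listed at 0 in testis 1. In ovaries it had 0.291 FPKM in ovary 2 and was listed at 0 in the others. A model over nearly the same stretch (23361286 to 23363400) had 0, 1.43 and 16.3 FPKM in testes 1, 2 and 3. In ovaries that model had 0.0153 FPKM in ovary 2 and was listed at 0 in the others. How fragments were divided between these models is not given. On linkage group 15, a model 143 bp after the member that ends at 8379750 had 124, 19 and 206 FPKM in testes 1, 2 and 3, and 0.217, 3.13 and 0.26 FPKM in the ovaries. The member itself had 174, 114 and 110 FPKM in the testes, so the 2 neighbours did not share an order of testes.

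The member with the largest spread in testis, on linkage group 24 (13344959 to 13345945), lies 8838 bp after one of the 6 genes that were as abundant in testis but under 0.1 FPKM in every ovary. That gene (13325614 to 13336120) had 2488, 2241 and 2146 FPKM in testes 1, 2 and 3, and 0.0372, 0.0382 and 0.0275 FPKM in the ovaries. The pair thus differed in both respects: the neighbour was even among testes and near 0 in ovary, where the member had 17.8 FPKM or more.

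Genes around members were not abundant as a rule. The 104 neighbours that neither overlap a member nor are one had a median of 7.58 FPKM in testis and 1.1 FPKM in ovary, beside 5.73 FPKM in testis and 0.746 FPKM in ovary over all genes. Of the 92 at 1 FPKM or more in testis, 35 (38%) had a testis mean at least 10 times the ovary mean, beside 39.8% of all genes at that level.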
